A study of Homo sapiens with 6 samples.

Results

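The heat shock protein (HSP) and J protein (DNAJ) chaperone genes were examined in RBE cells, a long-established human cell line grown from a bile duct cancer of the liver (intrahepatic cholangiocarcinoma). They were chosen by name alone: every protein-coding gene whose symbol begins with HSPA, HSP90, HSPB, DNAJA, DNAJB or DNAJC and a number, together with HSPD1, HSPE1, HSPH1 and the heat shock transcription factor HSF1. The rule took 74 of the 63186 genes in the count table, and 55 of them had enough reads to be tested. The rule itself uses no measured value, but the family was picked with earlier results of these data known. Both groups of the study were RBE cells at about 60% confluency, transfected by lipofection, given fresh medium at 24 h and collected at 48 h. The 3 si-Ctrl cultures received a control siRNA and the 3 si-CHAF1A cultures an siRNA against CHAF1A, with no other allele or drug named. CHAF1A encodes the large subunit of chromatin assembly factor 1, which deposits histones H3 and H4 behind the replication fork. The comparison asked how transcript levels differ once CHAF1A is reduced in this 1 cell line.

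Chaperones bind proteins that are not yet, or no longer, folded. HSP70 proteins take hold of short exposed stretches and release them with cycles of ATP use. J proteins bring them their clients and start each cycle, and the HSP110 proteins (HSPA4, HSPA4L, HSPH1) reset it by exchanging the nucleotide. HSP90 proteins act later on kinases, hormone receptors and other nearly folded clients. In mitochondria the HSP60 and HSP10 chaperonin, encoded by HSPD1 and HSPE1, encloses proteins after import, and small HSPs (HSPB genes) hold aggregating proteins without using ATP. HSF1 drives many of these genes after heat or proteotoxic stress, while a separate response serves the endoplasmic reticulum (ER), where HSPA5 (BiP) and HSP90B1 (GRP94) reside.

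The libraries held 15643381 to 20918997 counts. Levels are given as CPM, read counts relative to library size scaled with TMM factors, and mean ± SD is over n = 3 libraries per group. CHAF1A itself checks the labels, with 51.5, 59.8 and 51 CPM in si-Ctrl 1, 2 and 3 and 11.1, 12.9 and 11.2 CPM in si-CHAF1A 1, 2 and 3. It fell in edgeR's quasi-likelihood test (log2 fold change -2.21 ± 0.10, adjusted p = 2.57e-10, with ± for the SE). All 6 biliary epithelium markers examined reached 1 CPM, at a summed 1917 to 2332 CPM in si-Ctrl and 2476 to 2690 CPM in si-CHAF1A. Markers of other cell types were few, and their summed levels mostly lay above the controls after knockdown: 2 of 6 hepatocyte markers reached 1 CPM (18.2 to 28.6 against 33.4 to 56.1 CPM summed), 3 of 6 fibroblast markers (8.66 to 11.8 against 16 to 36.2 CPM), 2 of 4 endothelial markers (2.41 to 3.77 against 6.60 to 8.86 CPM) and 0 of 5 leukocyte markers (1.09 to 1.32 against 0.617 to 0.747 CPM). The fibroblast genes DCN and LUM were at 0 in all si-Ctrl libraries. COL1A2 reached 1 CPM only through si-CHAF1A 1, at 5.47 CPM against 0.172 and 0.056 CPM in si-CHAF1A 2 and 3. That library also held the upper end of the fibroblast range, with COL1A1 at 23.4 CPM against 11.3 and 11.8 CPM. The part of these genes in the results below was not tested, and in such bulk samples fewer cells of one type and less RNA per cell cannot be told apart. The si-Ctrl 2 library stood apart from the other controls on the second principal component (-29.6 against 14.9 and 13.9, with 11.2% of the variance). Where it or another library decides a value, the value without it is given.

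Promoters of the members were read first for the words of the 2 classical chaperone elements, because these stretches show which genes carry the exact words. The knockdown can then be read against them. RefSeq windows on GRCh38.p14, from 250 bases before to 50 bases from the start on, existed for 65 of the 74 members (84 windows). The heat shock element was searched as TTCNNGAANNTTC and its reverse complement GAANNTTCNNGAA, and the ER stress element as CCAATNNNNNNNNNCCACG and its reverse complement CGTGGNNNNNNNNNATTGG. Neither word contains the other. Only exact matches inside the windows were counted, so a member without a match is not shown to lack an element. A heat shock element lay in the windows of 7 members, against 166 of all 27305 genes with a window (0.608%), and an ER stress element in those of 2 members, against 25 genes (0.0916%). The heat shock element members were HSP90AA1, HSP90AB1, HSPA8, HSPD1, HSPA6, DNAJB6 and DNAJA1. The 5 stretches printed here lie upstream of a RefSeq start, for HSPD1 of only 1 of its 2 starts, while the DNAJA1 word lies past the start. They are written 5′ to 3′ on the gene's strand with the matched letters in capitals. HSP90AA1 (chr14:102087111-102087140, minus strand), HSP90AB1 (chr6:44247768-44247852, plus strand), HSPA8 (chr11:123062170-123062199, minus strand), HSPD1 (chr2:197500061-197500090, minus strand) and HSPA6 (chr1:161524445-161524494, plus strand) read as follows.
HSP90AA1: gagggttcTTCCGGAAGGTTCgggaggctt
HSP90AB1: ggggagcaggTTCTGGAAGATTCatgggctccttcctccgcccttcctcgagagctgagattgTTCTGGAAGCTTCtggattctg
HSPA8: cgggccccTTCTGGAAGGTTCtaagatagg
HSPD1: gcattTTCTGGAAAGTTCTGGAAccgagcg
HSPA6: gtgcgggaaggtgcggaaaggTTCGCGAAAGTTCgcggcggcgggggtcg
In HSP90AB1 the word occurs at 2 separate places. HSPA8 also has 2, at 230 and 55 bases upstream, of which the near one is shown, and in HSPD1 2 overlapping copies form 1 longer run. Of the 7 members with a heat shock element, 3 were lower (HSP90AA1, HSP90AB1, HSPD1), 1 was higher (HSPA6) and 3 did not pass the test (HSPA8, DNAJB6, DNAJA1). Among all tested genes 18.5% were higher and 19.3% lower. The word was thus found beside changes in both directions. The HSP90AB1 call was kept in only 8 of 15 alternative scalings, filters, tools and left-out libraries.

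The ER stress element stood in the windows of HSPA5 (chr9:125241379-125241428, minus strand) and, at 2 places, HSP90B1 (chr12:103930212-103930299 and chr12:103930316-103930345, plus strand), the 2 large ER chaperones.
HSPA5: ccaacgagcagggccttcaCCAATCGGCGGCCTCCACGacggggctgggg
HSP90B1, far copy: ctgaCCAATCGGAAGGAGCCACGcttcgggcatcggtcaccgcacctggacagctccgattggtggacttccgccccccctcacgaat
HSP90B1, near copy: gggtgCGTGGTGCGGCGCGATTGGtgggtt
HSP90B1 was lower and HSPA5 did not pass the test.

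Across the 55 tested members 8 were higher (14.5%) and 18 lower (32.7%) after CHAF1A knockdown at an adjusted p under 0.05. Among all 15911 tested genes 18.5% were higher and 19.3% lower. The higher members were HSPA6, DNAJC6, HSPA2, DNAJC18, HSPB1, DNAJC22, DNAJC1 and DNAJC3. The lower ones were DNAJC9, HSP90AA1, DNAJB4, DNAJC24, DNAJC8, HSPD1, DNAJC16, DNAJC11, DNAJB11, DNAJB14, HSPE1, DNAJC2, HSPA14, HSPA9, DNAJB1, HSP90B1, HSP90AB1 and HSPA4. Changes were small: with at least 1.5-fold added, 1 member was higher (HSPA6, against 8.6% of all genes) and 2 were lower (DNAJC9 and HSP90AA1, against 5.55% of all genes). In 33 members (60%) the groups did not overlap, and the same was true of 48.2% of all tested genes. The median log2 fold change of the tested members was -0.05, beside 0.00 (-0.24 to 0.28 between quartiles) over all tested genes.

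The count of higher members dropped to 5 without si-Ctrl 3, without si-CHAF1A 1 and without si-CHAF1A 3, and it was 11 without si-Ctrl 2. The lower count ran from 12 to 22 when each library was left out in turn. Scaling by library totals alone shifted the split to 11 higher and 13 lower, with a shift of 0.05 in the median log2 fold change of all genes. Of the members called in the main analysis, 5 of the 8 higher and 10 of the 18 lower kept their call in all 15 alternative scalings, filters, tools and left-out libraries.

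**Figure D1:**
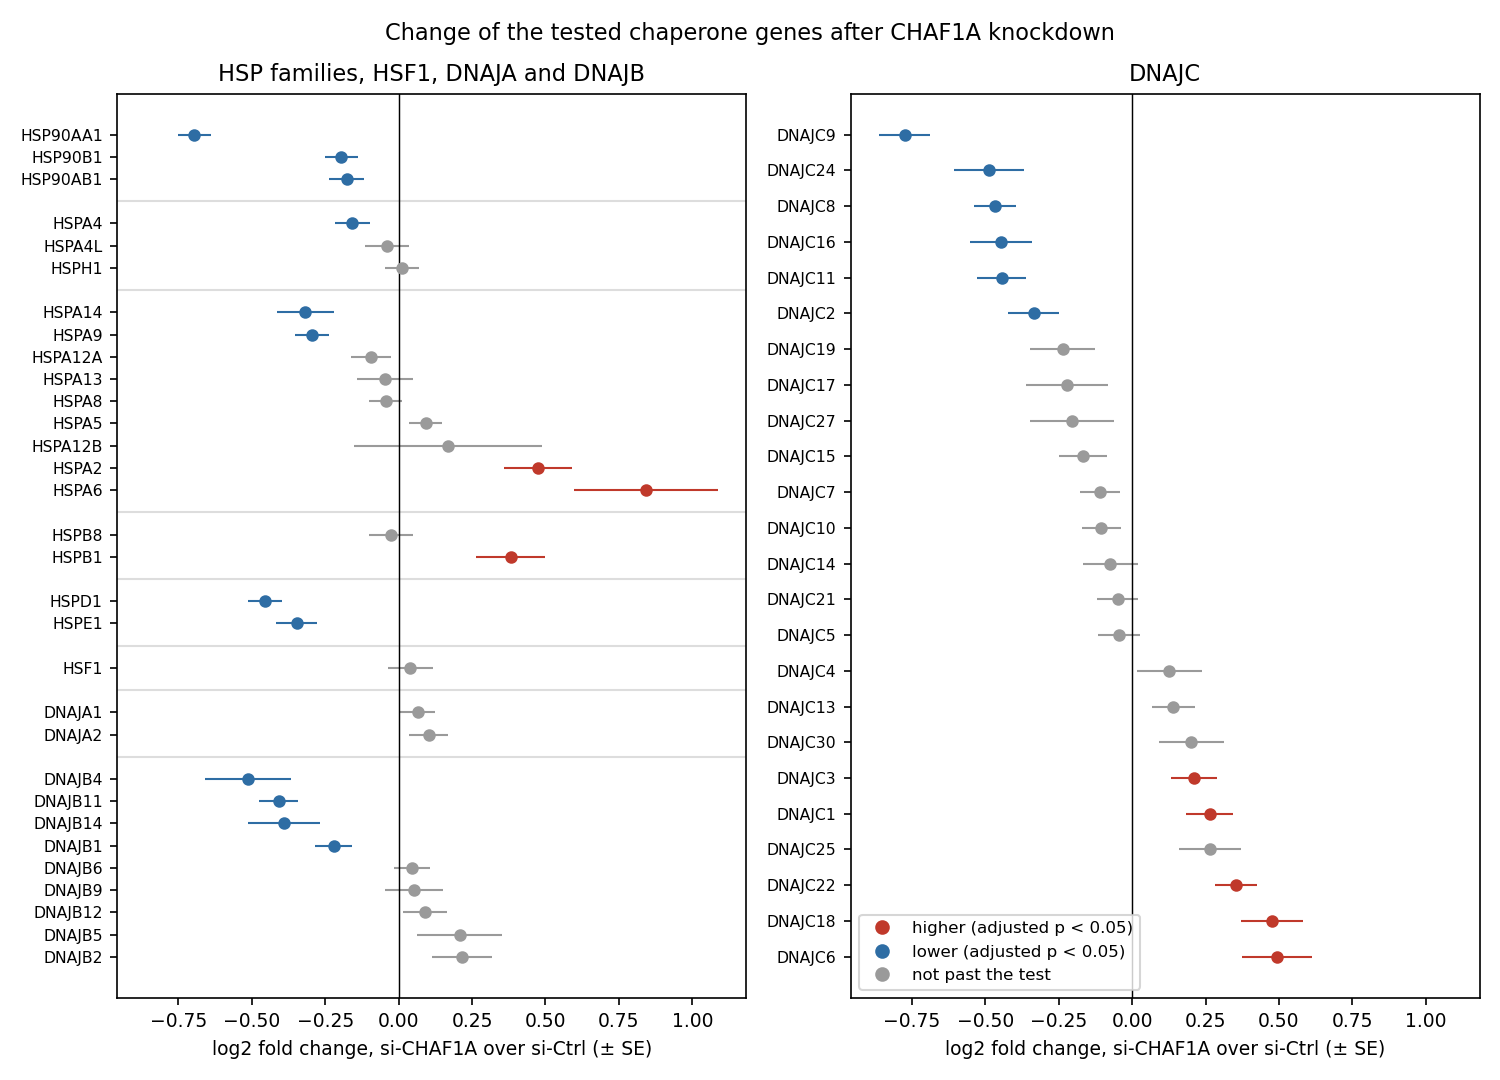
Log2 fold change (si-CHAF1A over si-Ctrl) of the 55 tested genes with the SE as a bar, grouped by family with grey lines between families in the left panel, with DNAJC genes on the right. HSP90AA1 (-0.70) and DNAJC9 (-0.77) lie farthest to the left and HSPA6 (0.84) farthest to the right, and most DNAJC points lie within 0.5 of 0.

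Summed over all 74 members, the si-Ctrl libraries held 15309, 15485 and 15106 CPM and the si-CHAF1A libraries 13451, 13468 and 13478 CPM, which is 0.88 of the control mean with no overlap. HSP90 genes made up most of the gap, at 6614, 6707 and 6468 CPM against 4988, 5010.1 and 5101 CPM (0.76 of control). Most of this lay in HSP90AA1 alone, at 2959 ± 55.4 against 1827 ± 24.4 CPM. The HSP70 genes held 4395 ± 44.9 CPM in si-Ctrl and 4300.2 ± 27.4 CPM in si-CHAF1A, a ratio of 0.98. By compartment, the mitochondrial members stood at 0.78 of control (1535 ± 2.03 against 1203 ± 22.8 CPM) and those of the ER at 0.99 (3315 ± 36.8 against 3272 ± 15.6 CPM). Those of cytosol and nucleus stood at 0.85 (9892 ± 213 against 8412 ± 54.9 CPM), with HSP90AA1 making up most of that gap. In genes called, the mitochondrial group had 0 higher and 4 lower of 7 tested, the cytosolic and nuclear group 3 higher and 10 lower of 26, and the ER group 3 higher and 4 lower of 13, beside 18.5% higher and 19.3% lower among all tested genes. Without si-CHAF1A 2 or 3 the cytosolic and nuclear group had 6 lower. In the ER group, 1 was higher without si-Ctrl 3 or si-CHAF1A 1, 2 or 3 and 5 without si-Ctrl 2. Its lower genes were 2 without si-Ctrl 1 or 3 or si-CHAF1A 1 or 3 and with library totals as the only scaling. Without si-Ctrl 2, more genes passed as lower, DNAJC10 and HSPA13 in the ER group and DNAJC15 and DNAJC19 in the mitochondrial group.

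Levels of different genes were compared per length, as TPM, in which counts are divided by the merged exon length of each gene. In control cells HSP90AB1 was first at 2610.4 ± 36.4 TPM, rank 26 among all genes of the table, followed by HSP90AA1 at 1706 ± 111 TPM. HSPA5 (1243 ± 53 TPM) and HSPA8 (1161 ± 82.1 TPM) came next and did not differ from each other beyond their spread. HSP90B1 (684 ± 64.4 TPM) and HSPB1 (605 ± 83.6 TPM) likewise overlapped. They were followed by HSPD1 at 421 ± 36.7 TPM and HSPA9 at 272 ± 12.3 TPM. HSPA4, DNAJA1, HSPH1 and DNAJB1 lay together between 172 and 199 TPM. Of the J proteins, DNAJA1 (184 ± 11 TPM), DNAJB1 (172 ± 2.82 TPM) and DNAJC5 (142 ± 3.72 TPM) led their classes, and most DNAJC genes stayed under 50 TPM. HSF1 stood at 72.9 ± 1.79 TPM. With the longest transcript as the length in place of the merged exons, HSP90AB1 and HSP90AA1 stayed first and second, but HSPA8 (1829.7 TPM) lay above HSPA5 (995 TPM), HSPD1 (582 TPM) lay above HSPB1 (544 TPM), HSP90B1 (848 TPM) lay apart from HSPB1, and HSPE1 stood at 172 TPM.

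**Figure D2:**
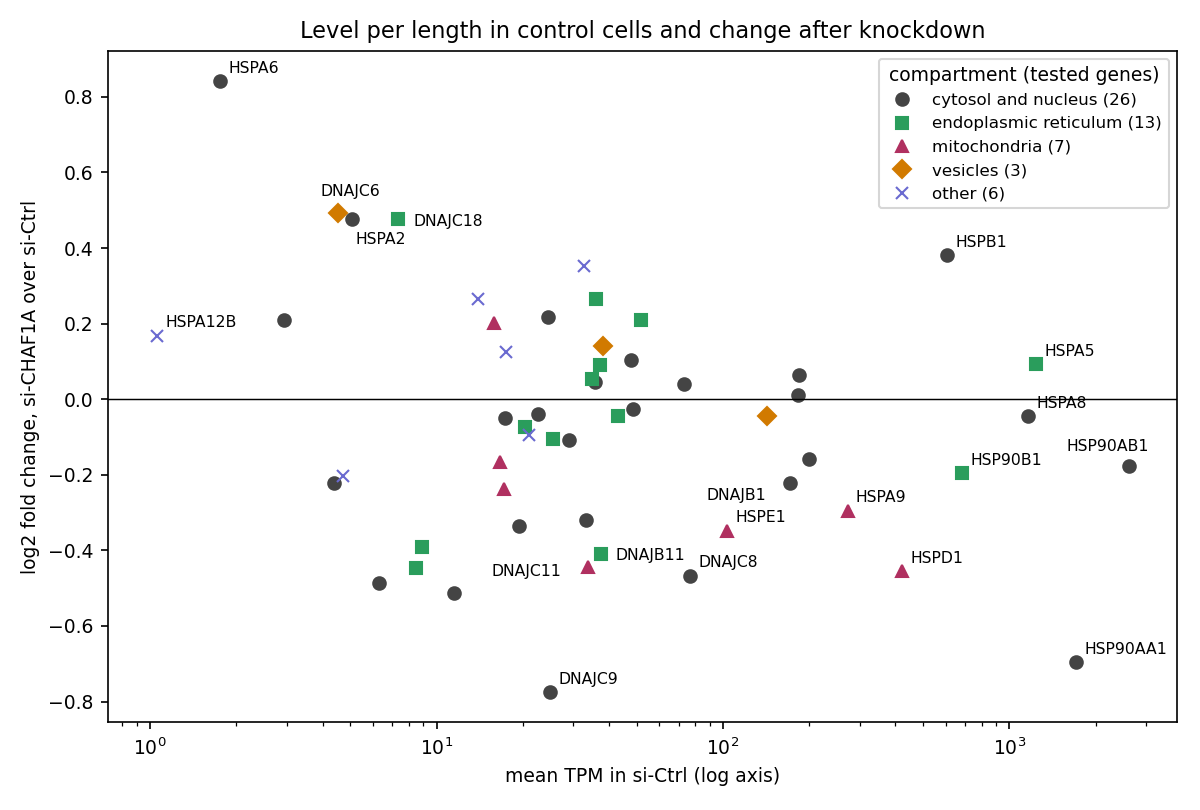
Mean TPM in si-Ctrl (log axis) against the log2 fold change of each tested gene, with one symbol per compartment. Of the abundant genes on the right, HSP90AA1 (-0.70), HSPD1 (-0.46) and HSPA9 (-0.29) lie below 0, HSPA8 (-0.04) lies near it and HSPB1 (0.38) lies above it.

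All 3 tested genes named HSP90 were lower, to unequal degrees, and HSP90AA1 alone was with upper-quartile scaling or library totals. HSP90AA1, the inducible cytosolic form (ENSG00000080824, GRCh38 chr14:102080738-102139699), had 3015, 2959 and 2904 CPM in si-Ctrl 1, 2 and 3 and 1814, 1812 and 1855 CPM in si-CHAF1A 1, 2 and 3. The groups were far apart, and the mean fell from 2959 ± 55.4 to 1827 ± 24.4 CPM (log2 fold change -0.70 ± 0.06, adjusted p = 1.60e-07), 1.62-fold lower. HSP90AB1, the constitutive cytosolic form (chr6:44246166-44253888), had 2515, 2728 and 2487 CPM in si-Ctrl against 2261, 2272 and 2307 CPM in si-CHAF1A. Its groups did not overlap either, but the step was smaller (log2 fold change -0.18 ± 0.06, adjusted p = 0.0286), and the call was lost without si-CHAF1A 1, 2 or 3 (adjusted p 0.109, 0.0988 and 0.0899), with upper-quartile scaling (0.0873), with library totals (0.0572) and without the low-count filter (0.052). With the 2 genes read per length, HSP90AA1 transcript was 0.653 ± 0.034 of HSP90AB1 transcript in si-Ctrl and 0.455 ± 0.0019 in si-CHAF1A. With the longest transcript as the length, this ratio was 0.876 in si-Ctrl and 0.610 in si-CHAF1A. HSP90B1 of the ER (chr12:103930107-103953645) had 1085, 1019 and 1077 CPM in si-Ctrl against 914, 927 and 938 CPM in si-CHAF1A (log2 fold change -0.19 ± 0.06, adjusted p = 0.0139). Its call was lost without si-Ctrl 1 or 3 and without si-CHAF1A 1, 2 or 3, at adjusted p between 0.0537 and 0.0726, with upper-quartile scaling (0.0505) and with library totals (0.0586). Processed copies share much of these genes' sequence, so their reads are uncertain: the pseudogene HSP90AA2P went the same way as HSP90AA1 (21.3 ± 8.93 to 8.58 ± 0.348 CPM, log2 fold change -1.32 ± 0.29, adjusted p = 0.0114), while HSP90AB3P did not pass the test (11.8 to 8.20 CPM). All 5 pseudogenes named for HSP90AA1 together held 21.4 CPM in si-Ctrl and 8.68 CPM in si-CHAF1A, under 2959 and 1827 CPM of the parent gene.

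HSPD1, HSPE1 and HSPA9, the tested HSP members of the mitochondrial matrix, were lower together. TRAP1, a mitochondrial HSP90 relative that the choice by name leaves out, did not pass the test. It stood at 145 ± 6.20 CPM in si-Ctrl and 143 ± 3.53 CPM in si-CHAF1A (log2 fold change -0.03, adjusted p = 0.765). HSPD1 (HSP60, chr2:197486581-197516737) had 605, 573 and 592 CPM in si-Ctrl 1, 2 and 3 and 429.6, 443 and 418 CPM in si-CHAF1A 1, 2 and 3, a fall from 589.9 ± 16.5 to 430.2 ± 12.8 CPM (log2 fold change -0.46 ± 0.06, adjusted p = 1.95e-05). HSPE1, its HSP10 lid (chr2:197499994-197503457), had 69.3, 64.7 and 68.1 CPM in si-Ctrl against 51.5, 54.3 and 52.9 CPM in si-CHAF1A (log2 fold change -0.35 ± 0.07, adjusted p = 9.76e-04). HSPA9 (mortalin, chr5:138553756-138575724), the HSP70 that pulls proteins through the inner membrane and folds them in the matrix, had 729, 759 and 742 CPM in si-Ctrl against 596, 619 and 604 CPM in si-CHAF1A (log2 fold change -0.29 ± 0.06, adjusted p = 7.39e-04). In each of the 3 genes every si-CHAF1A library lay under every si-Ctrl library, and each kept its call in all 15 alternatives. HSPD1 and HSPE1 are transcribed away from each other on chromosome 2, with the RefSeq start of HSPE1 at 197500379 and those of HSPD1 105 and 539 bases from it. Their annotated exons overlap on opposite strands, over 6.62% of the HSPD1 exon bases. Other genes overlap 23.9% of the HSPE1 exon bases, HSPD1 on the opposite strand and the read-through gene HSPE1-MOB4 on the same strand. With an unknown strand setting, part of the reads of HSPD1 and HSPE1 cannot be told apart. The HSPD1 to HSPE1 ratio per length was 4.08 ± 0.036 in si-Ctrl and 3.79 ± 0.10 in si-CHAF1A. It was 3.39 and 3.15 with the longest transcript as the length.

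Among the mitochondrial J proteins, DNAJC11 of the outer membrane, known for its part in cristae organisation, was lower, with 55.1, 63.1 and 52.3 CPM in si-Ctrl against 42.6, 43.4 and 39.4 CPM in si-CHAF1A (log2 fold change -0.44 ± 0.08, adjusted p = 6.49e-04). The import motor protein DNAJC19 (-0.24, adjusted p = 0.104) and its inner membrane relative DNAJC15 (-0.17, adjusted p = 0.118) did not pass the test. Without si-Ctrl 2 both passed as lower (-0.31, adjusted p = 0.0121 and -0.22, adjusted p = 0.00869). DNAJC30 did not pass (0.20). The matrix J protein DNAJA3 was listed at 2 counts over the 6 libraries and was not tested. The same held around it: 7 of 9 protein-coding neighbours within 100 kb had fewer than 60 counts in all, against 35% of all 19830 protein-coding genes, so nothing is read from its level.

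**Figure D3:**
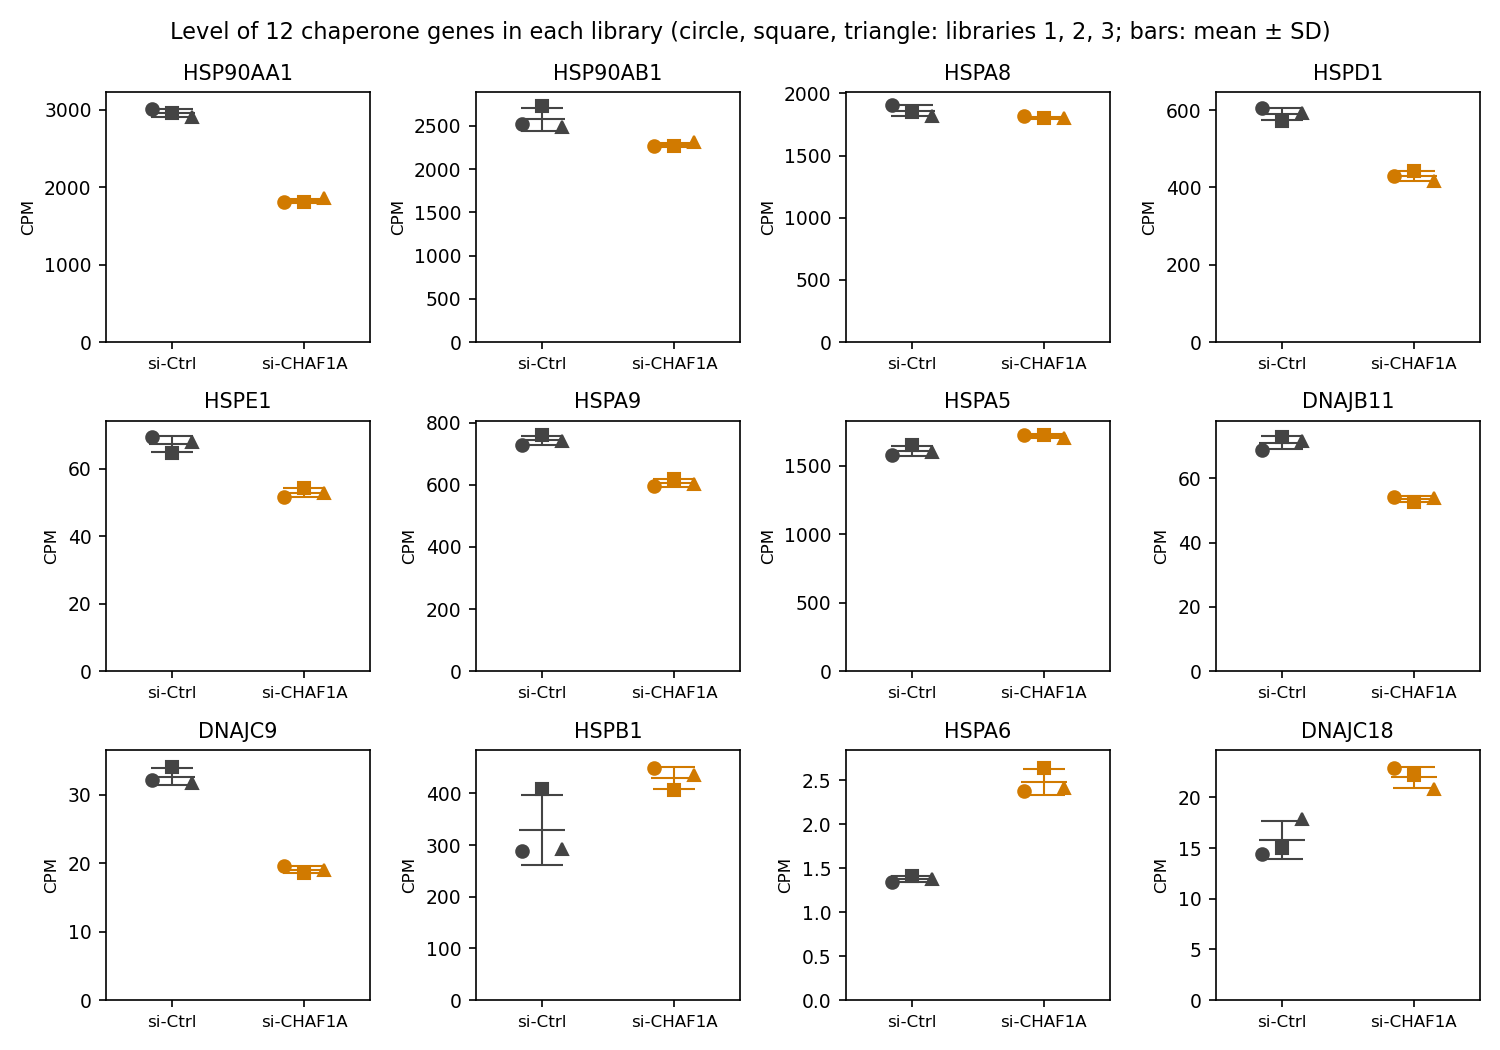
CPM of 12 of the genes in each library (circle, square and triangle for libraries 1, 2 and 3; horizontal bars for the mean and ± SD, axes from 0). HSP90AA1, HSPD1, HSPE1, HSPA9, DNAJB11 and DNAJC9 show a clear gap between the groups, HSPA8 nearly none, and in HSPB1 the si-Ctrl 2 square lies among the si-CHAF1A points.

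HSP70 genes of the cytosol moved in different directions. HSPA8, the constitutive and by far most abundant of them, had 1910.1, 1851 and 1821 CPM in si-Ctrl against 1815, 1799 and 1799 CPM in si-CHAF1A. All 3 knockdown values lay just under the controls, and the difference was within the test's error (log2 fold change -0.04 ± 0.06, adjusted p = 0.572). Set against HSP90AA1 per length, HSPA8 transcript stood at a ratio of 0.681 ± 0.0045 in si-Ctrl and 1.07 ± 0.018 in si-CHAF1A. The longest transcript as the length gave 0.896 and 1.41. HSPA6, a form known for being nearly silent without stress (chr1:161524540-161526910), had 1.34, 1.41 and 1.38 CPM in si-Ctrl against 2.38, 2.64 and 2.41 CPM in si-CHAF1A. It was 1.79-fold higher (log2 fold change 0.84 ± 0.24, adjusted p = 0.013) but stayed at a very low level. Its near-identical pseudogene HSPA7 held 1 count in si-Ctrl and 3 in si-CHAF1A over all libraries. HSPA2, best known from spermatogenesis, had 9.28, 9.65 and 10 CPM in si-Ctrl against 13.7, 14.5 and 12.1 CPM in si-CHAF1A and was higher too (log2 fold change 0.48 ± 0.12, adjusted p = 0.00416), with no overlap. HSPA14, which sits on ribosomes with DNAJC2, was lower, with 32.2, 26.7 and 28 CPM in si-Ctrl against 24.3, 21.4 and 24 CPM in si-CHAF1A (log2 fold change -0.32 ± 0.10, adjusted p = 0.0172). Its call was lost without si-Ctrl 1 (adjusted p = 0.0892), without si-CHAF1A 2 (adjusted p = 0.0947) and with library totals (adjusted p = 0.0529). A further identifier that GENCODE 29 also names HSPA14 stood at 31.1 CPM in si-Ctrl and 33.8 CPM in si-CHAF1A (log2 fold change 0.12, adjusted p = 0.298). This entry and CDNF on the opposite strand together overlap 17.4% of the exon bases of the tested HSPA14. Reads of the 2 HSPA14 entries cannot be told apart where they overlap. The distant relatives HSPA12A (-0.09) and HSPA12B (0.17) did not pass the test. HSPA12B is known from endothelium. Of the endothelial markers, VWF rose from 0.627 ± 0.31 to 3.76 ± 1.21 CPM (log2 fold change 2.54, adjusted p = 3.50e-05). PECAM1 did not pass the test (0.49, adjusted p = 0.111), and CDH5 and KDR had too few reads to be tested.

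The classical inducible pair HSPA1A and HSPA1B could not be judged. HSPA1A (chr6:31815464-31817946) was listed at 2 counts and HSPA1B (chr6:31827735-31830255) at 4 counts over all 6 libraries, and HSPA1L between LSM2 and HSPA1A at 0. All 20, 17 and 23 protein-coding genes within 100 kb of HSPA1A, HSPA1B and HSPA1L had fewer than 60 counts as well. Genes that most cells use were listed near 0 there too, VARS1 within that distance (31 counts) and BAG6 (35 counts) and CSNK2B (0 counts) farther away. These members are therefore only listed near 0, and no statement on their expression is made. The other 15 untested members held 0 to 52 counts in all. They include the muscle small HSPs HSPB2, HSPB3 and HSPB7, the testis genes DNAJB7, DNAJB8 and HSPB9, DNAJB13 of cilia, and DNAJA4 (23 counts), DNAJC12 (37 counts) and DNAJC5B (52 counts).

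Of the 2 large ER chaperones, HSP90B1 was lower and HSPA5 did not pass the test. HSPA5 had 1577, 1646 and 1599 CPM in si-Ctrl 1, 2 and 3 and 1726, 1721 and 1697 CPM in si-CHAF1A 1, 2 and 3, with every knockdown value above the controls. The difference was not past the threshold (log2 fold change 0.09 ± 0.06, adjusted p = 0.214), but it was with library totals as the only scaling (0.14, adjusted p = 0.0317) and without si-Ctrl 2 (0.10, adjusted p = 0.0126). The HSPA5 to HSP90B1 ratio per length was 1.82 ± 0.10 in si-Ctrl and 2.22 ± 0.048 in si-CHAF1A, or 1.18 and 1.44 with the longest transcript as the length. HSPA13, a truncated microsomal relative, had a log2 fold change of -0.05 (adjusted p = 0.745). It was lower without si-Ctrl 2 (-0.16, adjusted p = 0.0319), while without si-Ctrl 1 the value was 0.05.

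The J proteins of the ER were also divided. DNAJB11 (ERdj3), the soluble partner of HSPA5 (chr3:186567403-186585800), had 69, 72.9 and 71.6 CPM in si-Ctrl against 54.3, 52.7 and 53.9 CPM in si-CHAF1A (log2 fold change -0.41 ± 0.07, adjusted p = 2.04e-04), with a clear gap and the call kept in all 15 alternatives. DNAJC16, an ER membrane protein, was lower as well, with 23.7, 21.1 and 26.7 CPM in si-Ctrl against 18.5, 16.9 and 17 CPM in si-CHAF1A (log2 fold change -0.45 ± 0.10, adjusted p = 0.00318). DNAJB14, another ER membrane J protein, had 43.2, 30.1 and 40.8 CPM in si-Ctrl against 26, 32.4 and 28.3 CPM in si-CHAF1A. Here the groups overlapped through si-Ctrl 2 and si-CHAF1A 2, and the fall (log2 fold change -0.39 ± 0.12, adjusted p = 0.0193) was lost without si-Ctrl 1 or 3 and without si-CHAF1A 1 or 3 (adjusted p 0.0838, 0.068, 0.0988 and 0.0736) and with library totals (0.0606).

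Higher ER members were DNAJC18, DNAJC1 and DNAJC3. DNAJC18, a membrane J protein related to DNAJB12 and DNAJB14, had 14.5, 15 and 17.9 CPM in si-Ctrl against 22.9, 22.2 and 20.8 CPM in si-CHAF1A (log2 fold change 0.48 ± 0.10, adjusted p = 0.00201) with no overlap. DNAJC1 (ERdj1), which binds ribosomes at the ER, had 29.5, 31.4 and 29 CPM in si-Ctrl against 36, 35.9 and 36.1 CPM in si-CHAF1A (log2 fold change 0.26 ± 0.08, adjusted p = 0.016). Its values were close within each group, yet the call was lost in 5 of the 6 analyses that leave out a library, all but the one without si-Ctrl 2, at adjusted p between 0.0504 and 0.0722. DNAJC3 (p58IPK), a luminal partner of HSPA5, had 102, 84.3 and 99.8 CPM in si-Ctrl against 105, 113 and 112 CPM in si-CHAF1A (log2 fold change 0.21 ± 0.08, adjusted p = 0.0428). Without si-Ctrl 2 its log2 fold change was 0.12 (adjusted p = 0.0468), and the call was lost without si-Ctrl 3 or si-CHAF1A 1, 2 or 3 (adjusted p 0.0524 to 0.158), without the low-count filter (0.0534) and with the replicate block (0.0696). DNAJB9 (0.05), DNAJB12 (0.09), DNAJC10 (-0.10) and DNAJC14 (-0.07) did not pass the test. Without si-Ctrl 2, DNAJB12 passed as higher (0.15, adjusted p = 0.0324) and DNAJC10 as lower (-0.17, adjusted p = 0.00171).

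HSF1 and the HSP110 exchange factors moved little. HSF1 (chr8:144291591-144314722) had 122, 142 and 122 CPM in si-Ctrl against 143, 127 and 127 CPM in si-CHAF1A, overlapping between groups (log2 fold change 0.04 ± 0.08, adjusted p = 0.725). HSPH1, the HSP105 exchange factor that HSF1 is known to induce, had 512, 491 and 519 CPM in si-Ctrl against 513, 515 and 507 CPM in si-CHAF1A (log2 fold change 0.01 ± 0.06, adjusted p = 0.893). HSPA4L did not pass the test (-0.04). HSPA4 had 343, 326 and 347 CPM in si-Ctrl against 295, 305 and 311 CPM in si-CHAF1A and was just past the threshold (log2 fold change -0.16 ± 0.06, adjusted p = 0.0491). That call was lost in 11 of the 15 alternatives, among them the fits without si-Ctrl 1 or 3 and without si-CHAF1A 1, 2 or 3 (adjusted p 0.106 to 0.186).

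Only 2 small HSPs were tested. HSPB1 (HSP27, chr7:76302544-76304295), abundant in many epithelial cancers, had 288, 408 and 293 CPM in si-Ctrl 1, 2 and 3 and 448, 406 and 435 CPM in si-CHAF1A 1, 2 and 3. The 3 knockdown values lay together, while si-Ctrl 2 stood well above the other controls and reached the knockdown values. HSPB1 was higher (log2 fold change 0.38 ± 0.12, adjusted p = 0.0256). The call was lost without si-Ctrl 1 or 3 and without si-CHAF1A 1 or 3 (adjusted p 0.0536 to 0.0673), and with DESeq2 (adjusted p = 0.0741). Without si-Ctrl 2 the log2 fold change was 0.56 (adjusted p = 5.68e-16). HSPB8, the partner of BAG3, did not pass the test (-0.03).

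The class A and B J proteins include the general partners of cytosolic HSP70. Over both compartments, 0 of 2 tested DNAJA genes were called, and of 9 tested DNAJB genes 4 were lower (2 without si-Ctrl 3, 1 without si-CHAF1A 3). Over all tested genes 18.5% were higher and 19.3% lower. DNAJA1 had 165, 167 and 168 CPM in si-Ctrl against 168, 175 and 179 CPM in si-CHAF1A (log2 fold change 0.06 ± 0.06, adjusted p = 0.443) and DNAJA2 83, 80.2 and 77.6 CPM in si-Ctrl against 85.4, 89.9 and 83.2 CPM in si-CHAF1A (log2 fold change 0.10 ± 0.07, adjusted p = 0.25). In both genes the knockdown values lay at or above all controls without passing the test. DNAJB1, the stress-inducible HSP40 that takes apart aggregates with HSPA8 and an HSP110 (chr19:14514770-14529770), was lower, with 204, 221 and 202 CPM in si-Ctrl against 181, 179 and 179 CPM in si-CHAF1A (log2 fold change -0.22 ± 0.06, adjusted p = 0.0106). Its call was lost without si-CHAF1A 2 (adjusted p = 0.0516) and without si-CHAF1A 3 (adjusted p = 0.0546). Its relative DNAJB4 had 15.2, 11.2 and 16.3 CPM in si-Ctrl against 9.51, 11.4 and 8.92 CPM in si-CHAF1A. The groups overlapped through si-Ctrl 2 and si-CHAF1A 2 (log2 fold change -0.51 ± 0.15, adjusted p = 0.0115). The DNAJB4 call was lost without si-Ctrl 3 (-0.41, adjusted p = 0.0592) and without si-CHAF1A 3 (-0.44, adjusted p = 0.0668). DNAJB5 (0.21), DNAJB6, a suppressor of polyglutamine aggregation (0.05), and DNAJB2 (0.22) did not pass the test. DNAJB2 did so without si-Ctrl 2 (0.37, adjusted p = 1.39e-05), with upper-quartile scaling (0.26, adjusted p = 0.0477) and with library totals (0.27, adjusted p = 0.0329).

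The DNAJC class, whose members mostly serve special partners, had 5 higher (20.8%) and 6 lower (25%) of 24 tested. These shares are near those of all tested genes, 18.5% higher and 19.3% lower. Without si-Ctrl 3 or si-CHAF1A 1, 2 or 3, 3 were higher. DNAJC9, a J protein that also carries histones H3 and H4 (chr10:73183362-73248862), was lower by the widest margin of any member, with 32.1, 34 and 31.7 CPM in si-Ctrl 1, 2 and 3 and 19.6, 18.6 and 19 CPM in si-CHAF1A 1, 2 and 3. The groups were well separated (log2 fold change -0.77 ± 0.09, adjusted p = 4.39e-06), 1.71-fold lower. Other genes overlap 29.1% of its annotated exon bases, FAM149B1 and DNAJC9-AS1 on the opposite strand and MRPS16 on the same strand. MRPS16 (chr10:73248843-73252693) touches only the edge of DNAJC9 and was lower too (log2 fold change -0.41, adjusted p = 4.72e-04). FAM149B1 (0.15, adjusted p = 0.275) and DNAJC9-AS1 (-0.39, adjusted p = 0.436) did not pass the test. DNAJC8, found with the spliceosome, was lower, with 74.3, 72.6 and 73.4 CPM in si-Ctrl against 49, 55 and 55.3 CPM in si-CHAF1A (log2 fold change -0.47 ± 0.07, adjusted p = 1.09e-04). DNAJC24, which serves diphthamide synthesis on elongation factor 2, had 17.6, 13.4 and 16 CPM in si-Ctrl against 11.9, 10.6 and 10.9 CPM in si-CHAF1A (log2 fold change -0.49 ± 0.12, adjusted p = 0.00455). DNAJC2, the ribosome-bound partner of HSPA14, had 44.1, 39.2 and 43.1 CPM in si-Ctrl against 30.1, 35.5 and 34.6 CPM in si-CHAF1A (log2 fold change -0.34 ± 0.09, adjusted p = 0.00681). Its groups did not overlap, and the call was lost without si-CHAF1A 1 (-0.27, adjusted p = 0.0518).

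Higher DNAJC genes outside the ER were DNAJC6 and DNAJC22. DNAJC6 (auxilin), which strips clathrin from vesicles and is known from neurons, had 10.8, 9.85 and 10.4 CPM in si-Ctrl against 12.8, 16.6 and 14.2 CPM in si-CHAF1A (log2 fold change 0.49 ± 0.12, adjusted p = 0.00435). DNAJC22, a membrane J protein, had 57.1, 55.9 and 52.3 CPM in si-Ctrl against 74.3, 67.2 and 69.6 CPM in si-CHAF1A (log2 fold change 0.35 ± 0.07, adjusted p = 0.00119). Both showed no overlap and kept their call in all 15 alternatives. The remaining DNAJC genes without a call were DNAJC4, DNAJC5, DNAJC7, DNAJC13, DNAJC17, DNAJC21, DNAJC25 and DNAJC27, with log2 fold changes from -0.22 (DNAJC17) to 0.27 (DNAJC25). DNAJC25 passed as higher with upper-quartile scaling, with library totals and with only genes at a mean log2 CPM of at least 1 (adjusted p 0.0301, 0.0334 and 0.0393). The cysteine string protein DNAJC5, the most abundant per length, had 235, 276 and 239 CPM in si-Ctrl against 251, 243 and 232 CPM in si-CHAF1A (log2 fold change -0.04 ± 0.07, adjusted p = 0.662) with overlapping groups.

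Partners of these chaperones were read from 6 lists, drawn up with earlier results of these data known. The lists held 121 genes, of which 114 were tested, 15 higher and 41 lower (18.5% and 19.3% of all tested genes were), with a median log2 fold change of -0.11 beside 0.00 over all tested genes. Without si-Ctrl 1 or si-CHAF1A 1, 9 were higher. The TRiC chaperonin and its helper prefoldin, which fold actin and tubulin, had 0 higher and 11 lower of 16 tested (median -0.28). The prefoldin subunit VBP1 fell from 83.7 ± 5.78 to 51.8 ± 1.85 CPM (-0.69). The TRiC subunits CCT6A (528 ± 12.6 to 381 ± 5.00 CPM, -0.47) and TCP1 (452 ± 6.84 to 338 ± 3.81 CPM, -0.42) were lower as well. Mitochondrial import and protease genes had 2 higher and 9 lower of 18 (median -0.17), with 0 to 4 higher as single libraries were left out (0 without si-Ctrl 1 or si-CHAF1A 1, 1 without si-Ctrl 3 or si-CHAF1A 3 and 4 without si-Ctrl 2). Among them the entry pore TOMM40 (-0.49), the receptor TOMM20 (-0.37) and the inner membrane translocase subunit TIMM17B (-0.52) were lower, while the matrix protease LONP1 (0.30) and the inner membrane protease AFG3L2 (0.23) were higher. The LONP1 call was lost without si-Ctrl 1 or 3 or si-CHAF1A 1 (adjusted p 0.0532 to 0.0819). That of AFG3L2 was lost without si-Ctrl 1 or si-CHAF1A 1 or 3 (adjusted p 0.0609 to 0.0845).

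Co-chaperones of HSP70 and HSP90 had 5 higher and 10 lower of 32 tested (median -0.12), with 8 higher without si-Ctrl 2 and 3 without si-CHAF1A 2. For this list and the next 2, the share over all tested genes was 18.5% higher and 19.3% lower. Higher were UNC45A, a myosin chaperone (47.7 ± 3.25 to 75.6 ± 4.36 CPM, 0.66), TOMM34 (79.4 ± 2.64 to 120.5 ± 1.97 CPM, 0.60) and ST13, which binds HSP70 (0.40). Lower were CDC37L1, a relative of the kinase adaptor CDC37 (10.4 ± 0.661 to 5.78 ± 0.591 CPM, -0.85), SGTB (35.3 ± 5.28 to 19.8 ± 1.47 CPM, -0.84) and GRPEL1, an exchange factor of HSPA9 (118 ± 6.63 to 85.3 ± 2.49 CPM, -0.47). Its relative GRPEL2 was higher (27.4 ± 6.14 to 34.9 ± 2.06 CPM, 0.36, adjusted p = 0.0394). Relatives outside the naming rule had 1 higher and 3 lower of 11 (median -0.10), with 5 lower without si-Ctrl 2 and 1 without si-CHAF1A 2. SERPINH1, the collagen chaperone HSP47, was higher (0.47), and GAK (-0.24) and CLPB (-0.23) were among the lower genes. GAK lost its call without si-CHAF1A 2 (adjusted p = 0.0604), and CLPB lost it without si-Ctrl 3 or si-CHAF1A 2 or 3 (adjusted p 0.0757 to 0.139), with upper-quartile scaling (0.0801) and with library totals (0.0869). Textbook HSF1 targets outside the rule, of which 9 of 16 stand in another list too, had 4 higher and 5 lower of 15 (median -0.07), with P4HA2 (0.71) at one end and ZFAND2A (-0.52) at the other. Between them MRPL18 (-0.41), CHORDC1 (-0.45) and CACYBP (-0.34) were lower.

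ER folding and quality control had 6 higher and 5 lower of 30 tested (median 0.01), beside 18.5% higher and 19.3% lower among all tested genes. The higher genes were 3 without si-Ctrl 1 or 3 or si-CHAF1A 1, and the lower ones 3 without si-CHAF1A 1, 2 without si-CHAF1A 2 and 3 with upper-quartile scaling or library totals. Calnexin (CANX), the membrane lectin chaperone, fell from 1669 ± 33.5 to 765 ± 17.2 CPM (log2 fold change -1.13 ± 0.06, adjusted p = 7.65e-10), while its soluble relative calreticulin (CALR) rose from 869 ± 102 to 1075 ± 40.6 CPM (log2 fold change 0.31 ± 0.08, adjusted p = 0.00452). ERO1A, which supplies oxidising power for disulfide bonds, rose from 71.6 ± 10.9 to 141 ± 5.29 CPM (0.98), and the disulfide isomerase PDIA4 was higher too (0.25). XBP1 (-0.46) and SDF2L1 (-0.45) were lower, SDF2L1 not without si-CHAF1A 2 (-0.32, adjusted p = 0.0959).

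**Figure D4:**
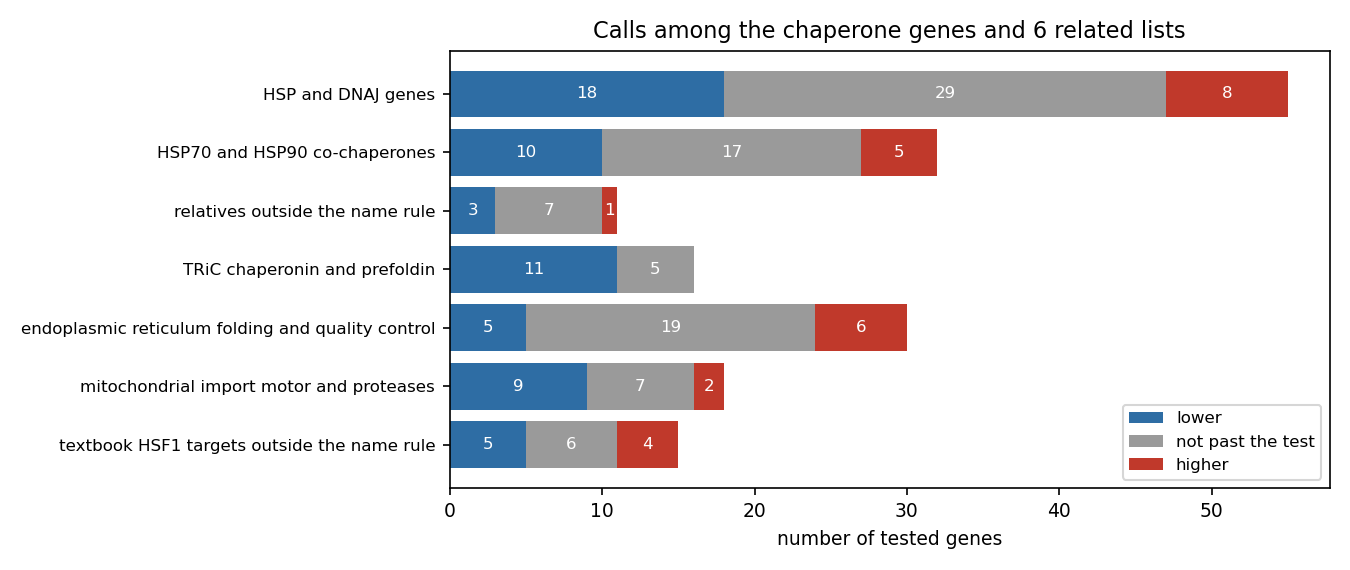
Number of tested genes that were lower (blue), not past the test (grey) and higher (red) among the HSP and DNAJ genes and in each of the 6 lists of partners. The TRiC and prefoldin bar has 11 lower and no higher gene, and the ER bar is nearly balanced at 5 lower and 6 higher.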

How the data were processed

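RNA from 6 RBE cultures was sequenced with 150 bp reads. The authors deposited 1 table of whole-number gene-level read counts, not normalised. The submitters' processing notes name fastp 0.20.1, HISAT2 2.1.0, SAMtools 1.9, featureCounts 2.0.1, StringTie 2.1.4 and hg38, without settings. The design text describes strand-specific libraries, but how the counter treated strand and multi-mapping reads is not given in the sources used here. Columns named NC and si with a number were matched to the titles of the same group and number, and NC was read as the control. The labels call the samples of a group biological replicates without saying more, so the p-values reflect only the spread among 6 samples, which may be technical.

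Symbols came from a gene name table (62665 of 63186 identifiers) and positions, gene types and exon lengths from GENCODE 29 on GRCh38 (58173 identifiers). Genes were kept by filterByExpr (minimum count 10, minimum total 15), leaving 15911. The test was the robust quasi-likelihood test of edgeR 4.0.16 (R 4.3.3, TMM, group as the only term), with Benjamini-Hochberg adjustment over all of them at 0.05. SE is the log2 fold change divided by the square root of F, without sign. The biological coefficient of variation was 8.12%. TPM used the merged exons. The fitting was tested on simulated data.

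The members and lists were chosen with earlier results of these data known. The naming rule takes CHAF1A, HSF1, up to 12 rises and 12 falls among called members, the most abundant member of each family and up to 3 higher and 3 lower genes per list. Other members were named by role. After their values were seen, ZFAND2A, HSP90AA2P, HSP90AB3P, MRPS16, FAM149B1, DNAJC9-AS1, TRAP1, GRPEL2, COL1A1, COL1A2 and the endothelial markers were named. Alternatives were other scalings and filters, DESeq2 1.42.0, limma-voom 3.58.1, stricter thresholds, a replicate block and each library left out in turn.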

Additional observations from a re-analysis of the deposited data

How the results depend on the processing

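Against 8 higher members in the main analysis, 4 remained past an adjusted p of 0.01 and 1 at a fold of at least 1.5. Of 18 lower members the same thresholds left 11 and 2. Leaving out 1 library at a time gave 5 to 11 higher and 12 to 22 lower members, and 9 to 22 higher and 30 to 47 lower genes in the 6 partner lists (15 and 41 in the main analysis). The lists had 9 higher genes without si-Ctrl 1 and without si-CHAF1A 1. CHAF1A stayed between -2.28 and -2.13 on the log2 scale in all alternatives. The cause of these shifts was not tested, beyond the fewer samples and stricter thresholds themselves.

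The sign turned in 9 members that were not past the test in the main analysis. With upper-quartile scaling and with library totals, the log2 fold change was 0.0021 and 0.0085 for DNAJC5, 0.0014 and 0.0055 for HSPA8, 0.020 and 0.025 for HSPB8, 0.00020 and 0.0019 for HSPA13, and 0.0064 and 0.0090 for HSPA4L. DNAJC21 had 0.00055 with library totals. With each library left out in turn, it ran from -0.090 to 0.026 (DNAJC5, highest without si-Ctrl 2), -0.018 to 0.024 (HSPH1, lowest without si-Ctrl 2), -0.044 to 0.15 (DNAJB9, lowest without si-Ctrl 2), -0.070 to 0.011 (HSPB8, highest without si-CHAF1A 2), -0.16 to 0.051 (HSPA13, highest without si-Ctrl 1) and -0.11 to 0.0062 (HSPA4L, highest without si-Ctrl 1). HSF1 ran from -0.020 (without si-CHAF1A 1) and -0.0031 (without si-Ctrl 3) to 0.11 (without si-Ctrl 2). HSPA13 without si-Ctrl 2 was the one of these values past the test.

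Replicate numbers did not pair the libraries: same-numbered deviations correlated at -0.086, -0.064 and -0.0031. With the replicate number as a block, 7 members were higher and 16 lower, and the lists had 13 higher and 36 lower genes. Calls of HSP90AB1 (adjusted p = 0.0792), HSPA4 (0.117), DNAJC3 (0.0696) and CLPB (0.0732) were then not made. Members under about 2 CPM, HSPA6 among them, rest on few reads.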
